A study of Homo sapiens with 6 samples.

Results

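BRD9 and 9 other genes for subunits of the SWI/SNF (BAF) chromatin remodelling complexes were followed in K562 cells with and without the SF3B1-K700E substitution. The 10 genes were BRD9, BICRA, BICRAL, SMARCD1, SMARCA4, SMARCB1, SMARCC1, SS18, BRD7 and ARID1A. They were found by symbol among the 62111 gene IDs of the deposited tables, and each symbol matched 1 ID. BRD9 was on the list as a reported splicing target of mutant SF3B1, and the others as members of the same complex or of its sister complexes. The list was chosen with earlier results of these data known.

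K562 is a human line from a chronic myeloid leukaemia in blast crisis. SF3B1 belongs to the spliceosome, where it holds the branch point of an intron. There were 3 libraries labelled SF3B1-wt (WT) and 3 labelled SF3B1-K700E (K700E), all of mRNA from K562 cells with no treatment named. The labels do not say how the substitution was introduced, how many alleles or clones carry it, or whether replicates are separate cultures. A p-value here thus covers no more than the scatter among these 6 libraries, which may be technical. Each genotype was deposited in a table of its own, so a difference in processing between the tables cannot be told apart from genotype.

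SWI/SNF complexes use ATP to move or evict nucleosomes and so open promoters and enhancers. They come in 3 assemblies that share a catalytic core. Canonical BAF (cBAF) is marked by ARID1A or its paralogue, PBAF by BRD7 among others, and non-canonical BAF (ncBAF) by BRD9 together with BICRA or BICRAL. In SF3B1-mutant tumours, BRD9 transcripts have been reported to take up a cryptic exon with a premature stop codon, and such transcripts are degraded by nonsense-mediated decay. BRD9 is the reader of acetylated lysine in ncBAF, a complex on which several leukaemias depend.

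The GENCODE annotation (release 29, build GRCh38) lists 19 BRD9 transcripts, of which 3 are protein-coding and 9 are classed as targets of nonsense-mediated decay. An exon present in 6 of them, all of the decay class, and in no coding transcript lies between a pair of coding exons, the second of 168 bases. It has 2 annotated starts, 10 bases apart, which give an exon of 160 bases (chr5:869245-869404, minus strand) or of 150 bases (chr5:869245-869394). The 3 junctions are shown because they are what a change of splicing at this place would exchange. Lower case gives the last 20 bases of the shared upstream exon and capitals the first 32 bases of the exon joined to it, read from the GENCODE transcript sequences.
Coding junction: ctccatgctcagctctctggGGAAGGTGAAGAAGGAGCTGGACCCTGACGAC
Exon of 160 bases: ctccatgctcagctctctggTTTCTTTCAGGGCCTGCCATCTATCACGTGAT
Exon of 150 bases: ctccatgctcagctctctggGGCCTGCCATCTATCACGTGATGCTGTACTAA
In the shorter form the annotated stop codon ends 32 bases into the exon and is the last 3 letters shown. In the longer form the annotated stop codon ends 137 bases into it. Whether this exon is the one reported in mutant cells was not examined here.

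The gene model behind the deposited values does not hold that exon. On the deposited coordinates (GRCh37) the BRD9 intervals 870588 to 870690 and 865529 to 865696 (168 bases) follow each other with 4891 bases and no counted interval in between. The same 2 exons stand 4891 bases apart in the GENCODE annotation, where the alternative exon lies between them. The BRD9 level sums reads on 17 exon intervals (2703 bases) and holds no read counted on the alternative exon itself. The decay transcript shown with the shorter exon has the same upstream exon as the coding transcript shown, and that exon is the interval 870588 to 870690. The BRD9 level can thus hold reads from decay transcripts as well as from coding ones. How much of the other intervals they share was not compared. Values per gene hold no splice junctions, so use of the alternative exon was not measured.

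Levels are given as TPM, reads divided by gene length and scaled to the same total in every library. Converted back to whole reads, the libraries held 104642332 to 136588117. The 10 genes had between 305 (BICRA, WT replicate 1) and 59639 (SMARCC1, K700E replicate 2) reads each. In every library more genes held 2 reads than 1 (2994 against 1139 in WT replicate 1, 3203 against 1124 in K700E replicate 1). Whether each read is an independent fragment was not tested. SF3B1, which carries the substitution, was at 98.9 to 143.5 TPM in WT, against 117.7 to 160.5 TPM in K700E, and a level cannot check the substitution itself. Of 9 erythroid marker genes fixed as a check of the cell line, all were at a mean of 38.5 TPM or more. Among 16 markers of other cell types, 9 had a mean under 1 TPM, including MS4A1, CD8A, MPO and CD14, while LYZ, EPCAM and KRT19 had means of 113.9, 59.0 and 160.5 TPM. WT replicate 3 lay between the other WT libraries in 75.9% of the genes tested and in 8 of the 10 genes here, so results are also given without it. The same share was 10.2% and 13.9% for WT replicates 1 and 2, and 25.7%, 46.3% and 28% for K700E replicates 1, 2 and 3. Whether WT replicate 3 is independent of the other WT libraries was not tested.

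None of the 10 genes passed the test between K700E and WT. The test was limma on log2(TPM + 1) over all 15493 genes averaging 1 TPM or more, with Benjamini-Hochberg adjustment over all of them and a threshold of 0.05, and all 10 genes were above that minimum. At that threshold 1.38% of all genes tested were called, 1.15% higher and 0.232% lower in K700E. At an unadjusted p under 0.05 there was 1 of the 10, BRD9, where 16.5% of all genes tested lay under it. Without WT replicate 3 none of the 10 passed either, with limma adjusted p of 0.594 (BRD9) to 0.989 (BRD7), and 0 of all genes tested were called (1462 at an unadjusted p under 0.05). The median log2 difference of the 10 was 0.11, beside 0.13 over all genes tested, and 4 of the 10 lay above that median gene.

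**Figure D1:**
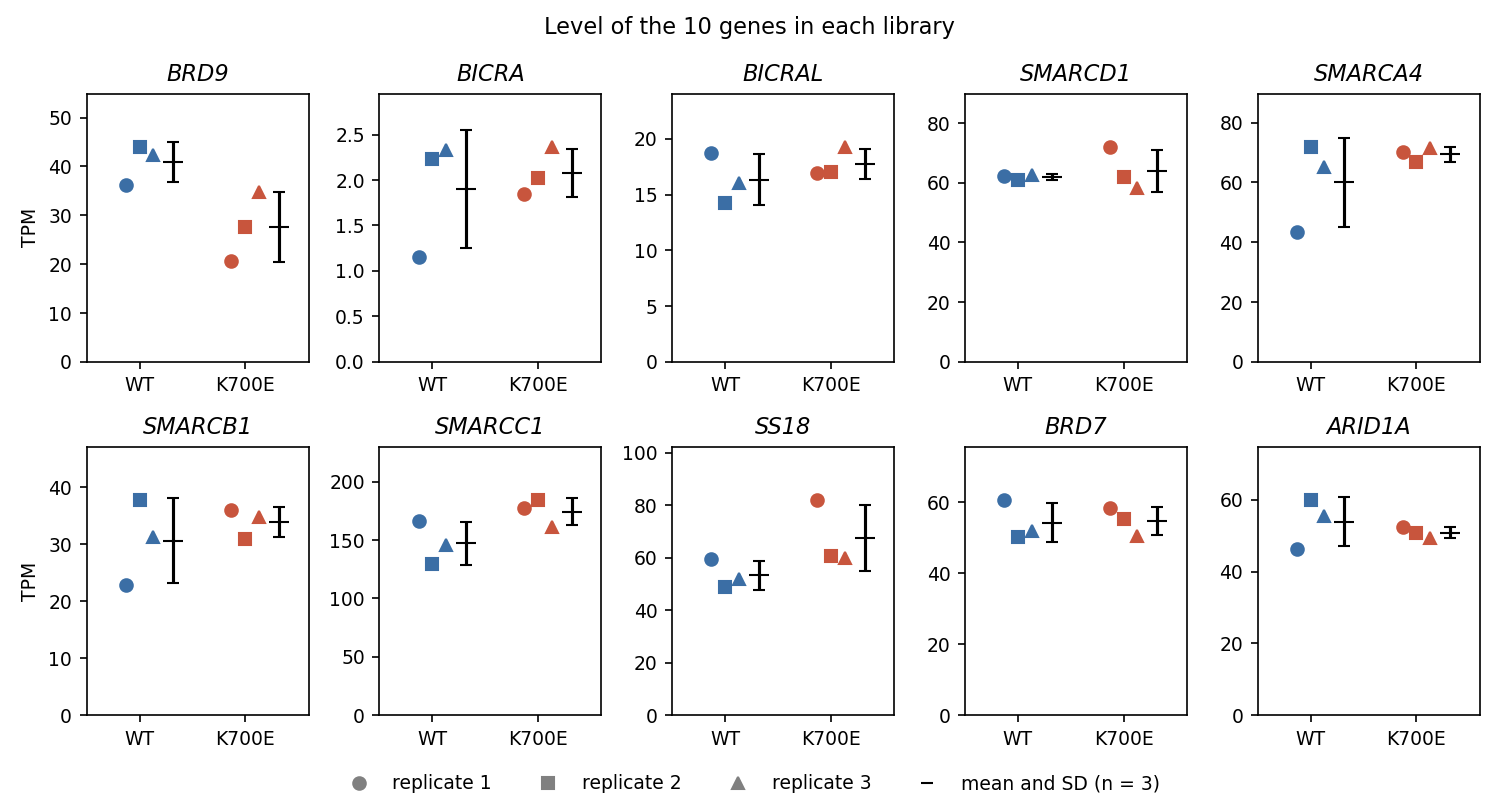
TPM (vertical axis, linear and from 0, a scale of its own for each gene) of the 10 genes in the 3 WT (blue) and 3 K700E (red) libraries, with symbols for the replicates and bars for the mean and SD (n = 3). BRD9 is lower in every K700E library than in any WT library (20.6 to 34.9 against 36.2 to 43.9 TPM) and SS18 is higher, while the groups overlap in the other 8 genes.

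BRD9 (ENSG00000028310; GRCh37 chromosome 5, 863856 to 892916, minus strand), the ncBAF bromodomain subunit, was the gene of the 10 with the largest difference. It stood at 36.2, 43.9 and 42.4 TPM in WT replicates 1, 2 and 3, against 20.6, 27.6 and 34.9 TPM in K700E replicates 1, 2 and 3. Every K700E library lay below every WT library, but the highest K700E value was within 1 SD of the lowest WT value. The means were 40.9 ± 4.07 and 27.7 ± 7.14 TPM (SD, n = 3 each), a ratio of 0.678. The log2 difference was -0.57 (SE 0.20, 95% interval -1.05 to -0.09) with a limma adjusted p of 0.230, which misses the threshold. Of all genes tested, 2.58% had a log2 difference as low as that of BRD9 or lower, and in 4.99% the K700E libraries all lay below the WT libraries.

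The K700E libraries differed from each other in BRD9 more than the WT libraries did. The SD on the log2 scale was 0.37 in K700E and 0.14 in WT. Leaving out 1 library, the log2 difference ran from -0.38 without K700E replicate 1, the lowest library, to -0.75 without K700E replicate 3, the highest. The limma adjusted p then was lowest without WT replicate 1 (0.145) and highest without WT replicate 3 (0.594). It was 0.0869 with a correction for GC content, the smallest of the 18 alternatives run, at a log2 difference of -0.73, and 0.284 with that correction and without WT replicate 3. In a bulk sample fewer cells with BRD9 RNA and less BRD9 RNA per cell cannot be told apart.

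Set against the other genes of the complex within each library, BRD9 gave the same order, on a scale that does not depend on scaling between libraries. BRD9 over the geometric mean of the 9 other genes was 1.13, 1.22 and 1.18-fold in WT replicates 1, 2 and 3. In K700E replicates 1, 2 and 3 it was 0.516, 0.742 and 0.921-fold. The WT libraries were close together, the K700E libraries spread widely below them, and the groups did not overlap. The mean difference was -0.73 on the log2 scale (SD 0.06 in WT and 0.42 in K700E, n = 3 each), given as a description with no test. Against 18 further subunit genes the mean difference was -0.66, also without overlap. Against each of the 9 genes alone, the groups did not overlap for 7 and overlapped for 2, BRD7 and SMARCD1. All 9 ratios share the BRD9 values, which by themselves did not overlap between the groups. The share of all genes tested against which BRD9 would give ratios without overlap was not counted. BRD9 over BRD7 ran from 0.599 to 0.875-fold in WT and 0.352 to 0.689-fold in K700E. BRD9 over SMARCA4 ran from 0.612 to 0.836-fold in WT and 0.294 to 0.487-fold in K700E, and BRD9 over SMARCC1 came closest to overlap among the 7, at 0.217 to 0.338-fold and 0.116 to 0.216-fold.

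**Figure D2:**
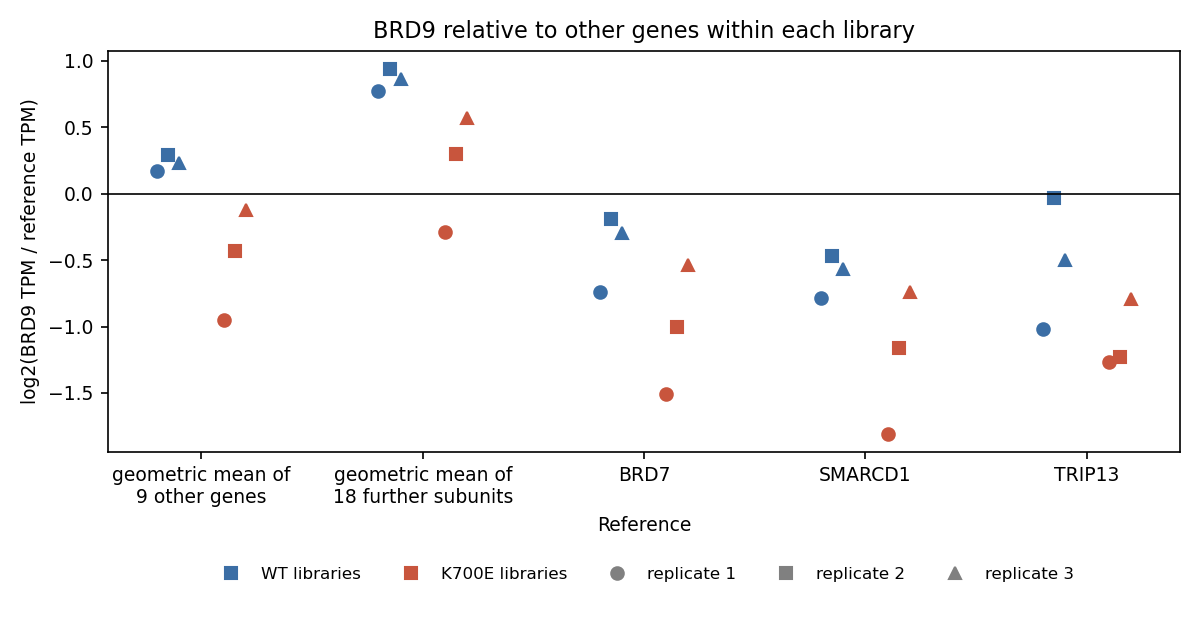
Log2 of BRD9 TPM over a reference within each library (vertical axis), for 5 references (horizontal axis), with WT libraries in blue, K700E libraries in red and symbols for the replicates. The groups are apart for both geometric means (1.13 to 1.22-fold against 0.516 to 0.921-fold for the 9 other genes) and overlap for the single genes BRD7, SMARCD1 and TRIP13.

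The gene across the start of BRD9 had similar means in both genotypes. TRIP13, an ATPase of the spindle checkpoint, is read in the other direction from a start 82 bases away from that of BRD9 on the deposited coordinates. It stood at 73.6, 44.9 and 60.0 TPM in WT replicates 1, 2 and 3, against 49.4, 64.7 and 60.2 TPM in K700E replicates 1, 2 and 3. The ranges overlapped fully, and the log2 difference was -0.01 (SE 0.20, 95% interval -0.49 to 0.46, limma adjusted p 0.982). BRD9 over TRIP13 was 0.492 to 0.979-fold in WT and 0.416 to 0.579-fold in K700E, overlapping. The nearest gene on the other side averaging 1 TPM or more, CEP72, was at 10.4 ± 3.17 and 11.9 ± 3.38 TPM (SD, n = 3 each). The 82 bases between both starts are shown since they are all that separates the genes, from the RefSeq promoter table (GRCh38.p14, chr5:892802-892883, minus strand, reading towards BRD9), with CG pairs in capitals.
Between BRD9 and TRIP13: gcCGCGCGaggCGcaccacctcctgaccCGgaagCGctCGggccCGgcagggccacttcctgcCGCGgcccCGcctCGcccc
The stretch has 12 CG pairs and a GC content of 81.7%. Of the 10 genes, 9 had an entry in that table.

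The partners that complete ncBAF, BICRA and its paralogue BICRAL, are alternative scaffold subunits to which BRD9 binds. BICRAL (ENSG00000112624; chromosome 6, 42714696 to 42836298, plus strand) stood at 18.8, 14.2 and 16.1 TPM in WT replicates 1, 2 and 3, against 17.0, 17.0 and 19.3 TPM in K700E. The groups overlapped, with a log2 difference of 0.12 (SE 0.15, 95% interval -0.24 to 0.48, limma adjusted p 0.756). BICRA (ENSG00000063169; chromosome 19, 48111453 to 48206534, plus strand) was the lowest of the 10 genes, at 1.15, 2.23 and 2.33 TPM in WT, against 1.85, 2.02 and 2.36 TPM in K700E. WT replicate 1 stood alone below the other 5 libraries. The log2 difference was 0.11 (limma adjusted p 0.836), and -0.09 without WT replicate 1. BICRA was 0.061 to 0.156 times BICRAL in every library, so BICRAL made up most of the RNA of this pair per length in both genotypes.

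The core subunits shared by all 3 assemblies overlapped between genotypes. SMARCA4 (ENSG00000127616; chromosome 19, 11071608 to 11173144, plus strand) encodes the ATPase BRG1. It stood at 43.3, 71.8 and 65.1 TPM in WT replicates 1, 2 and 3, against 70.0, 66.7 and 71.5 TPM in K700E. WT replicate 1 was again the low library, and the log2 difference of 0.24 (SE 0.20, limma adjusted p 0.599) became 0.02 without it. SMARCC1 (ENSG00000173473; chromosome 3, 47626759 to 47823383, minus strand), the BAF155 scaffold, was the highest of the 10, at 166.7, 129.9 and 145.4 TPM in WT, against 177.4, 184.0 and 161.6 TPM in K700E. Its WT replicate 1 exceeded K700E replicate 3, and the log2 difference was 0.25 (SE 0.14, 95% interval -0.07 to 0.56, limma adjusted p 0.420).

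SMARCD1 (ENSG00000066117; chromosome 12, 50478983 to 50494490, plus strand) encodes BAF60A, the SMARCD paralogue found in ncBAF. Before GC correction it was the steadiest of the 10 genes in WT, at 62.3, 60.9 and 62.6 TPM. In K700E it stood at 71.9, 61.9 and 58.1 TPM, on both sides of WT. Its log2 difference was 0.04 (SE 0.13, 95% interval -0.26 to 0.34, limma adjusted p 0.909). Its paralogue SMARCD2 was higher, at 99.0 ± 13.1 and 103.7 ± 4.71 TPM, and SMARCD3 lower, at 10.4 ± 2.18 and 14.9 ± 3.54 TPM (SD, n = 3 each).

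SS18 (ENSG00000141380; chromosome 18, 23596217 to 23671181, minus strand), a subunit of cBAF and ncBAF known from the fusion of synovial sarcoma, was the other gene whose groups did not overlap in TPM. It stood at 59.5, 48.8 and 51.9 TPM in WT replicates 1, 2 and 3, against 81.9, 60.6 and 60.1 TPM in K700E replicates 1, 2 and 3. K700E replicate 1 was far above the rest, while the other K700E libraries lay just above WT replicate 1. The means were 53.4 ± 5.52 and 67.5 ± 12.4 TPM (SD, n = 3 each), with a log2 difference of 0.32 (SE 0.17, 95% interval -0.06 to 0.71, limma adjusted p 0.387). Without K700E replicate 1 the log2 difference was 0.18, and without WT replicate 3 it was 0.30 with a limma adjusted p of 0.737. With trimmed-mean and median-ratio scaling between libraries it was 0.15 and 0.14. Either scaling puts WT replicate 1 above K700E replicates 2 and 3, so the groups then overlap. After GC correction they stayed apart, at 5.805 to 5.869 in WT and 5.885 to 6.21 in K700E on the log2 scale. Of all genes tested 24.0% had groups that did not overlap, 19.0% with K700E higher, beside 2 of the 10 here.

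Across the 6 libraries SS18 ran opposite to BRD9, with Pearson's r of -0.95 on log2(TPM + 1). K700E replicate 1 held the lowest BRD9 and the highest SS18 value. With 6 points that share genotype and library this is a description. The r of BRD9 with the other 8 genes ran from -0.82 (SMARCC1) to 0.34 (ARID1A). The 5 tested genes most like BRD9 by the same measure had r of 0.98 to 1.00: RPL7AP30, MYEOV, FAM178B, ACAP1 and STC2. RPL7AP30 is a ribosomal protein pseudogene, whose reads can come from its parent gene. FAM178B stood at 469 ± 134.7 TPM in WT, against 236 ± 116.8 TPM in K700E (SD, n = 3 each; limma adjusted p 0.244). MYEOV stood at 38.3 ± 3.52 and 27.6 ± 5.64 TPM (limma adjusted p 0.242), and none of the 5 passed the test.

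The subunits that mark cBAF and PBAF lay on both sides of 0. ARID1A (ENSG00000117713; chromosome 1, 27019727 to 27108595, plus strand), the DNA-binding scaffold of cBAF and a tumour suppressor, stood at 46.3, 59.8 and 55.5 TPM in WT, against 52.4, 50.8 and 49.4 TPM in K700E. The K700E values all fell inside the WT range, with a log2 difference of -0.07 (SE 0.14, limma adjusted p 0.831). BRD7 (ENSG00000166164; chromosome 16, 50349868 to 50402899, minus strand), the PBAF bromodomain subunit and closest paralogue of BRD9, stood at 60.5, 50.2 and 52.0 TPM in WT, against 58.4, 55.3 and 50.6 TPM in K700E. Its values also fell inside the WT range, with a log2 difference of 0.02 (SE 0.13, 95% interval -0.30 to 0.33, limma adjusted p 0.968).

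SMARCB1 (ENSG00000099956; chromosome 22, 24129118 to 24180196, plus strand), present in cBAF and PBAF but not in ncBAF and lost in rhabdoid tumours, stood at 22.8, 37.7 and 31.2 TPM in WT, against 36.0, 30.8 and 34.8 TPM in K700E. WT replicate 1 was the lowest library, and the log2 difference of 0.17 (SE 0.20, limma adjusted p 0.716) was -0.02 without it. SMARCB1 shares 55.1% of its exon bases with exons of DERL3, and BRD7 shares 40.1% with those of ADCY7, in each case on the opposite strand. The strand setting of the counting is not given in the sources used here, so the levels of these 2 genes, and of DERL3 (1.31 ± 0.188 and 1.98 ± 0.111 TPM) and ADCY7 (22.9 ± 6.98 and 24.8 ± 4.79 TPM), are uncertain. BRD9 shares no exon base with another gene.

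By TPM over all 6 libraries SMARCC1 was highest (160.8 ± 20.2, SD, n = 6), with no overlap with the next gene. SMARCA4, SMARCD1, SS18, BRD7 and ARID1A followed at 64.7 ± 10.8, 63.0 ± 4.68, 60.5 ± 11.6, 54.5 ± 4.28 and 52.4 ± 4.75 TPM, and each overlapped the next. BRD9 (34.3 ± 8.89) and SMARCB1 (32.2 ± 5.34) overlapped each other and lay below ARID1A in every library. BICRAL (17.1 ± 1.82) and BICRA (1.99 ± 0.454) came last, with no overlap between them or with SMARCB1. In K700E replicate 1 BRD9 was near the level of BICRAL (20.6 against 17.0 TPM), while in the WT libraries it was well above it.

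The spread of the WT libraries in these genes ran with GC content, that is the share of G and C in the longest GENCODE transcript. WT replicate 1 was the lowest WT library in all 4 genes above 55% GC (BICRA, SMARCA4, SMARCB1 and ARID1A, 57.5 to 68.6%) and the highest in all 4 below 50% (BICRAL, SMARCC1, SS18 and BRD7, 42.5 to 46.7%). Over the 10 genes Pearson's r between GC content and the log2 ratio of WT replicate 1 to the mean of the other 2 WT libraries was -0.97, and in the K700E libraries the same r ran from -0.34 to 0.43. The genes share the 3 libraries, so this is a description. BRD9 and SMARCD1 lie in the middle, at 53.4 and 54.7% GC.

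**Figure D3:**
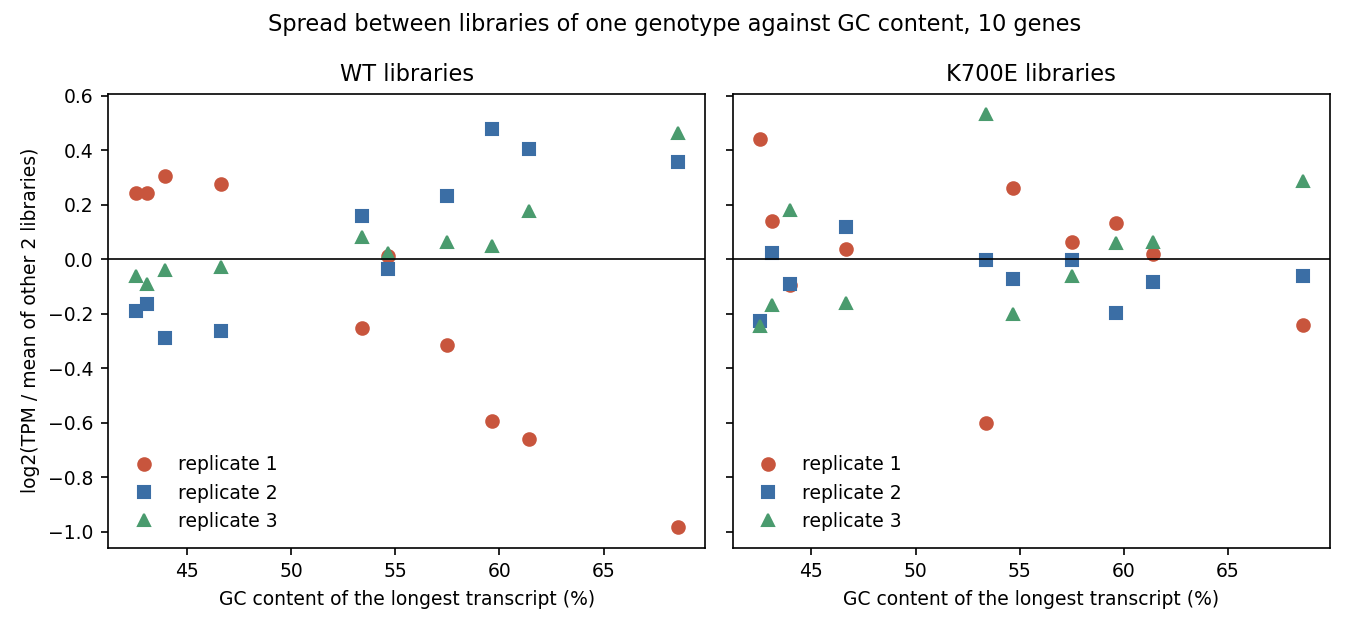
Log2 of TPM in a library over the mean of the other 2 libraries of its genotype (vertical axis) against GC content in percent (horizontal axis), 1 point per gene and library, WT on the left and K700E on the right. In WT, replicate 1 falls from 0.24 at 42.5% GC (SS18) to -0.98 at 68.6% GC (BICRA), and in K700E the low point of replicate 1 at 53.4% GC is BRD9.

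After a loess correction for GC content the SD over the WT libraries was smaller in 9 of the 10 genes, and that over the K700E libraries in 4. The exception in WT was SMARCD1, whose SD rose from 0.022 to 0.13 on the log2 scale. For SMARCA4 the WT SD went from 0.38 to 0.0051 on the log2 scale, and for SMARCB1 from 0.35 to 0.079. For BRD9 it went from 0.14 to 0.066 in WT and from 0.37 to 0.39 in K700E. Corrected BRD9 values were 5.39, 5.52 and 5.47 in WT and 4.31, 4.82 and 5.07 in K700E on that scale, so the groups stayed apart. The corrected log2 differences were 0.13 for SMARCA4, 0.04 for SMARCB1, 0.19 for SS18 and 0.09 for SMARCC1, and none of the 10 genes passed (limma adjusted p 0.0869 for BRD9 and 0.199 or more for the others in this and the other alternatives, except SMARCC1 at 0.165 without WT replicate 1).

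The further subunits of the 3 assemblies, fixed as a list of 19 genes, did not pass either. Of 18 tested, 0 were called by limma in either direction, 0 had an unadjusted p under 0.05 and 2 had groups that did not overlap. Over all genes tested the shares were 1.38%, 16.5% and 24.0%. The median log2 difference of the 18 was 0.08. The 19th, the neuronal actin-like subunit gene ACTL6B, was at 0.193 and 0.101 TPM and was not tested. SMARCD3 had the smallest limma adjusted p, 0.350, at 11.7, 7.92 and 11.7 TPM in WT, against 18.7, 11.7 and 14.3 TPM in K700E. BCL7A, ACTL6A and PHF10 followed at 0.435, 0.462 and 0.487. PHF10, which marks PBAF, stood at 55.5 ± 6.74 and 46.6 ± 7.09 TPM, and BCL7A at 9.50 ± 0.606 and 7.78 ± 0.819 TPM (SD, n = 3 each). The alternative subunits SMARCA2 (14.6 ± 0.394 and 13.5 ± 0.804 TPM), SMARCC2 (56.4 ± 5.02 and 56.5 ± 5.22) and ARID1B (16.4 to 23.4 and 18.3 to 26.8) stayed below their paralogues SMARCA4, SMARCC1 and ARID1A in every library. SMARCA4 over SMARCA2 was 3.01, 4.77 and 4.54-fold in WT and 5.33, 5.13 and 4.95-fold in K700E, with WT replicate 1 again apart from the rest. SS18 over its paralogue SS18L1 was 2.75 to 2.97-fold in WT and 3.09 to 4.63-fold in K700E, also without overlap. SMARCD1 over SMARCD3 ran from 5.317 to 7.685-fold in WT and from 3.837 to 5.275-fold in K700E, again without overlap. The groups overlapped for SMARCC1 over SMARCC2, ARID1A over ARID1B, SMARCD1 over SMARCD2 and BICRA over BICRAL. These ratios are descriptions with no test, and the share of gene pairs without overlap was not counted.

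**Figure D4:**
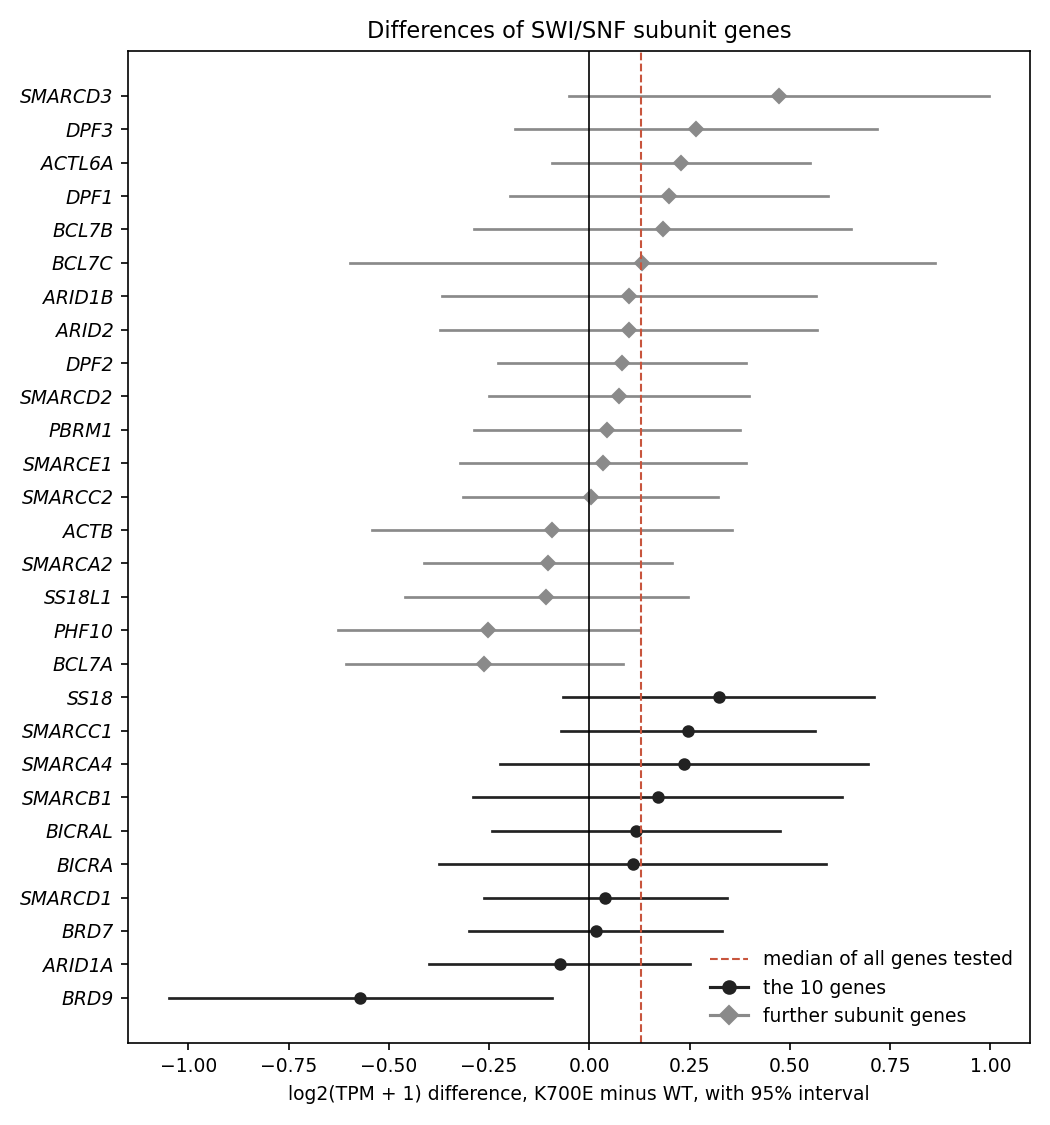
Difference on the log2(TPM + 1) scale, K700E minus WT (horizontal axis), with the 95% interval of limma for the 10 genes (black circles) and the 18 further subunit genes tested (grey diamonds), and the median of all genes tested as a dashed line at 0.13. The interval of BRD9 (-1.05 to -0.09) is the only 1 of the 28 that does not reach 0, before adjustment.

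Other remodeller families and further bromodomain genes were read in the same way. Of 29 tested genes of the ISWI, CHD and INO80 families 0 were called by limma, beside 1.38% of all genes tested. Groups did not overlap in 3 of the 29, beside 24.0% of all genes tested. The median log2 difference was 0.09. An unadjusted p under 0.05 was seen in 2, SMARCA1 and HDAC1, beside 16.5% of all genes tested. SMARCA1, an ISWI ATPase gene, stood at 16.2 ± 3.15 and 10.5 ± 2.07 TPM (limma adjusted p 0.226). HDAC1, a histone deacetylase of NuRD, stood at 235 ± 5.01 and 282 ± 10.4 TPM (limma adjusted p 0.283). CHD2, a remodeller gene with a limma adjusted p of 0.338 at 42.9 ± 3.99 and 34.2 ± 4.43 TPM, passed with GC correction alone (0.0391, log2 difference -0.48), and RUVBL1 had 0.431. The genes of 2 further acetyl-lysine readers stood at 159 ± 9.02 and 149 ± 14.5 TPM for BRD2 and 12.5 ± 1.48 and 12.1 ± 1.16 TPM for BRD3 (SD, n = 3 each). Their limma adjusted p were 0.746 and 0.924.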

How the data were processed

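RNA from 6 K562 libraries was measured, and the authors deposited TPM per gene in a table per genotype. Tools listed in the submitters' processing notes were featureCounts 2.0.1, TopHat2 2.1, cutadapt 2.10 and DESeq2, with build GRCh37 (hg19). The deposited WT table also gives exon intervals and gene length per gene, per the file headers, and its column names have the form that the aligner STAR writes. Which aligner made which table is not given in the sources used here, so a difference between the tables and the genotype cannot be told apart. TPM multiplied by gene length gave whole multiples of 1 step per library for 100% of genes above 0 (tolerance 0.01), so each library was scaled alone. Symbols matched 94.4% of gene IDs. Genes averaging 1 TPM or more were tested with limma 3.58.1 (R 4.3.3, empirical Bayes with trend, genotype as the only term, two-sided). The exact permutation p of 1 gene cannot go below 0.1 with 3 against 3. GC content, known for 97.7% of tested genes, and transcripts came from GENCODE, joined by gene ID. The procedure was tested on simulated data with independent noise for each gene and library. Those data lack the shift with GC content and the in-between WT replicate 3 described above. Tables were joined with Python 3.11.15 and pandas 2.3.3. The members and lists were chosen with earlier results of these data known. Named genes were the 10, list genes that passed and the 4 with the smallest adjusted p per list, BRD2 and BRD3, exon-sharing and neighbouring genes, and the 5 most like BRD9; other genes were named for their paralogues or as markers. A further gene under that rule is not reported here.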

Additional observations from a re-analysis of the deposited data

How the results depend on the processing

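None of the 10 genes and none of the further subunit genes was called in any of 18 alternatives that tested it; BICRA, DPF1 and DPF3 lie under the minimum of 5 TPM and were not tested there. BRD9 stayed lower in all 18, with log2 differences of -0.75 (median-ratio scaling) to -0.38 and limma adjusted p of 0.0869 to 0.594. BRD9 relative to the 9 other genes differed by -0.92 to -0.51 with 1 library left out. Genes called over all genes, higher and lower in K700E, were 178 and 36. They were 0 and 0 with no filter (4891 at an unadjusted p under 0.05), 73 and 19 at a minimum of 5 TPM, 114 higher with trimmed-mean and 113 with median-ratio scaling, 309 and 72 with limma-voom on recovered reads, and 268 and 221 with GC correction. With 1 library left out they ran from 0 to 144 and from 0 to 38, 0 being without WT replicate 3 (1462 unadjusted). Limma-voom and GC correction without that replicate also gave 0 (2415 and 1969 unadjusted), the latter chosen after seeing the data. The replicate block gave 59 and 8; same-numbered libraries had deviations correlated at 0.28, -0.19 and 0.30, so the numbers were not taken as pairs, and the block changed no call among the 10 genes. Of the other remodellers 1, CHD2, was called with GC correction. The cause was not tested in any of these cases.

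Small differences changed sign in 6 genes. With trimmed-mean and median-ratio scaling the log2 differences were -0.0074 and -0.014 for BICRA, -0.047 and -0.057 for BICRAL, -0.13 and -0.14 for SMARCD1, and -0.16 and -0.17 for BRD7; SMARCB1 was at -0.0091 with the latter. With GC correction, and with it but without WT replicate 3, they were -0.024 and -0.025 for BICRAL, -0.11 and -0.13 for SMARCD1, and -0.12 and -0.14 for BRD7. Limma-voom gave -0.0072 for SMARCD1 and -0.028 for BRD7, or -0.055 without WT replicate 3. Leaving out 1 library, the ranges were -0.095 to 0.22 for BICRA, -0.046 to 0.10 for SMARCD1, -0.020 to 0.33 for SMARCB1, -0.037 to 0.096 for BRD7 and -0.18 to 0.0036 for ARID1A. BICRA had the fewest reads of the 10 genes, 305 to 822 per library, and the part of depth in its spread was not tested.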
